A study of Drosophila melanogaster with 3 samples.

Results

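The peaks described here are the sites of the Drosophila melanogaster protein CG5245 that lie inside introns and far from any transcription start site (TSS). They were chosen by position alone. A member is a peak of the reproducible set whose summit, the base of highest enrichment, lies inside an annotated gene, in no annotated exon, and more than 2000 bp from the nearest TSS of any transcript. The gene models were those of Ensembl release 115, without transposable elements, on the 6 main chromosome arms. By this rule 720 of 3670 peaks (19.6%) were far-intronic. The others were 1799 promoter peaks (summit within 500 bp of a TSS), 520 near-intronic peaks (over 500 and up to 2000 bp from a TSS), 352 far-intergenic peaks (in no gene, over 2000 bp), 194 near-intergenic peaks and 85 exonic peaks.

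The peaks came from chromatin immunoprecipitation with sequencing (ChIP-seq) of whole embryos, male and female together, collected 0 to 16 h after laying. All embryos carried a transgene for CG5245 with green fluorescent protein (GFP) at its C terminus, and the antibody was against GFP. The labels' antibody field gives CG5245 instead, and the description was followed. The single group had 3 biological replicates, and there was no other genotype, stage or treatment to compare them with. Embryos of this age span hold many tissues, so a peak cannot be assigned to one of them. No file gives read counts and the depth of each replicate is unknown.

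CG5245 has C2H2 zinc fingers, small folds that grip DNA and are the commonest DNA-binding domain of fly transcription factors. Introns of fly developmental genes are long, and many of them hold enhancers, the stretches of DNA that set when and where a gene is used. Sites inside such introns, away from promoters, are therefore places where a DNA-binding protein can meet regulatory sequence.

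The sequences at the strongest sites show the first feature of these peaks, an A- and T-rich centre. The windows below hold the summit and 50 bases to each side for 6 of the 7 strongest members, from the Release 6 assembly (dm6, plus strand). Capitals mark runs of 6 or more A or T.
Tlk (chrX:3742187-3742287): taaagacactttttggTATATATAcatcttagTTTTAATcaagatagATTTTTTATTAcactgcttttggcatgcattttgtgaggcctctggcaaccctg
Raf (chrX:2297689-2297789): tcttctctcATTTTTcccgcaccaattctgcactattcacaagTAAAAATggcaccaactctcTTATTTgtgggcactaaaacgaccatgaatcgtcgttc
CG32486 (chr3L:3060761-3060861): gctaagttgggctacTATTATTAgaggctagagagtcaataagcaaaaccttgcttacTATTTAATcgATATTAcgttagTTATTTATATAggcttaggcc
aos and CG33158 (chr3L:16480510-16480610): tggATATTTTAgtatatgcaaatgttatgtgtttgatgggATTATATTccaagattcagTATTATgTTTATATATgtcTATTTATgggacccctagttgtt
Gug (chr3L:8458240-8458340): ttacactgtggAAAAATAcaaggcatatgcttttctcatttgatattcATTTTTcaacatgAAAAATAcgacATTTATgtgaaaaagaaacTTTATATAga
trx (chr3R:14283858-14283958): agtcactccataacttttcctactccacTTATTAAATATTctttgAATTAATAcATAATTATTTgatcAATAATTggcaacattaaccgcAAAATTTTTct

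Windows of the same size 500 bp to the right of the summits are shown for Gug and trx, which had the largest contrast with the neighbouring intron among the 12 named sites.
Gug, flank (chr3L:8458740-8458840): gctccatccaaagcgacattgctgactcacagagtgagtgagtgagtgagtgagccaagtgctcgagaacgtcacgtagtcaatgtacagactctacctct
trx, flank (chr3R:14284358-14284458): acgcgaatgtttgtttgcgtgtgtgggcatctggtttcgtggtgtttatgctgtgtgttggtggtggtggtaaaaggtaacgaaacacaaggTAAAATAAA

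In Gug the summit window was 74.3% A or T and this flank 49.5%, and in trx the values were 74.3% and 56.4%. Over the flanks to both sides, the summit was richer by 21.8 points in each of these genes. The feature varied among the strongest sites: the same difference was 7.43 points in Tlk, 4.95 in Raf and 1.49 in CG34417, and the flanks were the richer in sbb (-1.98 points) and fz (-9.90).

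A second set of windows shows a word of 8 bases, CACTGAGA, that recurred beside the summits. These hold the summit and 100 bases to each side for 5 of the strongest members that hold it, from the same assembly and strand. Capitals mark the word, read as CACTGAGA on the plus strand or as its reverse complement, TCTCAGTG.
CG6959 (chr3R:11849755-11849955): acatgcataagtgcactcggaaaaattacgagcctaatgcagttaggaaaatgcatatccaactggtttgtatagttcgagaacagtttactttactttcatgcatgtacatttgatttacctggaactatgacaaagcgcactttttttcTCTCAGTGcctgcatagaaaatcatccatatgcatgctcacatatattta
pnt (chr3R:23326371-23326571): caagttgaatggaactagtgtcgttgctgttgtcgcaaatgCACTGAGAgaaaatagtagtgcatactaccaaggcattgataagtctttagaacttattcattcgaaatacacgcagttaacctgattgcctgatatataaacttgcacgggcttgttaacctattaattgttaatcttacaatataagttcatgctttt
CG42342 (chr3R:16524196-16524396): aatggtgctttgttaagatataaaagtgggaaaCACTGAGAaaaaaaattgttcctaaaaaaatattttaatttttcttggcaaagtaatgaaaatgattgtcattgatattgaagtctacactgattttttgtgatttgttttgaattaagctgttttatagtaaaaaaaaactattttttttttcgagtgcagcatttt
Fas3 (chr2L:18325175-18325375): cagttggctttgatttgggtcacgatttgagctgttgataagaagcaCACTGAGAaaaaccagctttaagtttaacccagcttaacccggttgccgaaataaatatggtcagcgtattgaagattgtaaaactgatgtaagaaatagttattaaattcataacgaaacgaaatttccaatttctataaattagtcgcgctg
bves (chrX:21059088-21059288): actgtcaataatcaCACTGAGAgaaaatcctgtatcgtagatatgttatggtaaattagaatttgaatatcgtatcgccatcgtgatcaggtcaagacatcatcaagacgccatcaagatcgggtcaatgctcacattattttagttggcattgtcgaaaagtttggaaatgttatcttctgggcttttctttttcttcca

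The word stood left of the summit and read toward it on the plus strand in pnt, CG42342, Fas3 and bves, with its middle 49.5 to 82.5 bp away. In CG6959 it lay 54.5 bp to the right, on the minus strand, and again read toward the summit. The genes pnt, which encodes an ETS transcription factor of the EGF receptor pathway, and Fas3, which encodes a cell adhesion protein, are named by the rule for host genes. CG6959, CG42342 and bves were chosen after their values were seen.

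Far-intronic sites recurred in each replicate at a like frequency. The 3670 strongest regions of each replicate's own list are called its top regions. Far-intronic regions made up 18.2% of the top regions of replicate 1, 20.8% of replicate 2 and 20.4% of replicate 3, or 19.8% ± 1.42 (SD, n = 3). Among members, 465 overlapped top regions of all 3 replicates, 185 of 2, 67 of 1 and 3 of none, and 708 were candidates in all 3 replicate lists. The replicates' top regions are thus in part the same places. Values of sequence or position taken from them, here and below, are not independent, and their SD does not measure independent repeats. Support by all 3 was found for 64.6% of far-intronic peaks, against 70.0% of near-intronic, 67.8% of promoter and 56.5% of far-intergenic peaks. The difference to far-intergenic peaks passed the test (logistic regression, n = 3670 peaks, errors clustered by 200 kb window, Benjamini-Hochberg adjusted p = 0.040), and those to near-intronic (adjusted p = 0.090) and promoter peaks (adjusted p = 0.133) did not. The call against far-intergenic peaks was lost when the distance limit was 1000 or 4000 bp, with protein-coding genes alone, with more top regions, and with the upper 50% of peaks, where the difference was -0.68 points. Peaks of 1 list are no replicates of a condition, and a p across them speaks of the lists only.

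The 3670 peaks of the reproducible set came to 12.2% of the count of 30000 pooled candidate regions. By class, the peaks came to 8.82% of the count of 8163 far-intronic candidates, 13.05% of near-intronic, 20.2% of promoter and 8.71% of far-intergenic ones. These are ratios of counts, and regions were not matched between the lists. By overlap, 7306 of the far-intronic candidates lay outside the set. The signal value of a region is the score that the authors' peak caller gave it, and here it only ranks regions within a list. The members' signals ranged from 92.4 to 983, with a median of 142.8. On the log2 scale the mean signal was lower by 0.11 than at near-intronic peaks (linear regression with clustered errors, n = 3670, adjusted p = 0.0073) and lower by 0.16 than at promoter peaks (adjusted p = 1.0e-06). The difference to far-intergenic peaks was 0.06 (95% interval -0.03 to 0.15, n = 3670, adjusted p = 0.179). With only the strongest member of each host gene kept, a choice that by its construction raises the members' signal, the differences were 0.03 to near-intronic and -0.01 to promoter peaks and neither passed, while that to far-intergenic peaks was 0.21 and did.

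The strongest far-intronic site was in the first intron of Tlk, the gene of Tousled-like kinase, a nuclear kinase of chromatin assembly. Its signal was 983 (X, 3742065 to 3742394, summit 2340 bp from the TSS), and it ranked 26, 20 and 14 in replicates 1, 2 and 3. The second was in Raf, which encodes the kinase that passes the Ras signal on, with a signal of 806 (X, 2297552 to 2297876). It ranked 58, 40 and 23 in the replicates. These ranks are out of about 30000 candidates per replicate, and neither site left the top 60 in any of them.

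Peaks in CG12769 (signal 689) and CG32486 (644) came next. A peak of signal 604 on 3L (16480427 to 16480728) lay in aos, which encodes argos, a secreted inhibitor of the EGF receptor, and in the overlapping gene CG33158. Gug, which encodes the Atrophin corepressor, held a peak of signal 595 on 3L, 7642 bp from its TSS. trx, which encodes a histone H3 lysine 4 methyltransferase of the Trithorax group, held one of signal 580 on 3R. The nuclear receptor gene Hr4 had a peak of 509, and a peak of 503 lay in Hr3, a nuclear receptor of the ecdysone response, and in CG12912 and CG46321, which overlap it. sbb, which encodes a nuclear corepressor, had one of 507, at 18736 bp from the TSS. fz, the receptor of Wnt signals and planar polarity, had one of 485, and the TSS nearest to it, 22190 bp away, was that of lncRNA:CR45025. The remaining named site was in CG34417 (489). All 12 named sites but the one in Raf lay in a first intron.

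Far-intronic peaks were denser nearer to the TSS, also beyond the limit that defines them. Eligible sequence, meaning intronic bases that meet the rule, came to 41.4 Mb or 30.9% of the 6 arms, and held 17.4 members per Mb. There were 27.2 members per Mb at 2 to 3 kb from the TSS, 25.3 at 3 to 5 kb, 20.9 at 5 to 10 kb, 12.02 at 10 to 20 kb and 5.09 beyond 20 kb. The means of the 3 replicates' top regions gave the same order, with 27.8 ± 2.66, 25.4 ± 1.52, 21.1 ± 1.54, 12.2 ± 1.29 and 4.93 ± 0.963 per Mb (SD, n = 3 each). The first 2 bins differed by less than their spread, although the first was the higher in each replicate, and each of the last 2 lay below the bin before it in every replicate. The median distance was 5190 bp and the farthest summit 49831 bp from a TSS. Median signal differed little by distance, from 134.2 at 10 to 20 kb to 155.1 at 2 to 3 kb. At the limit of the rule, the 3 members nearest to it lay in lncRNA:CR44320 (2004 bp, signal 167.7), Tet (2008 bp, 130.9) and RhoGAP18B (2009 bp, 148.3). The 3 intronic peaks just outside it lay in fru (1991 bp, 140.2), in CG1677 and lncRNA:CR44357 (1992 bp, 107.1), and in Atg1 and CG42709 (1996 bp, 99.4).

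**Figure D1:**
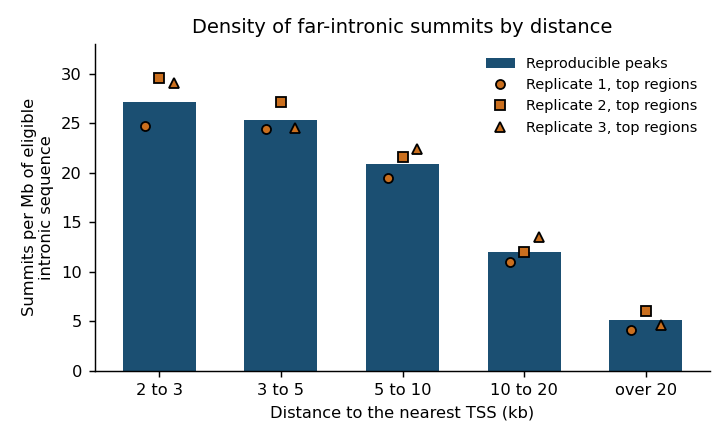
Summits per Mb of eligible intronic sequence (y) by distance to the nearest TSS in kb (x), as bars for the reproducible peaks and as points for the far-intronic top regions of each replicate. The bars fall to 5.09 per Mb beyond 20 kb, against 27.2 at 2 to 3 kb.

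First introns held more than their share of the sequence. Of the members, 421 (58.5%) lay in the first intron of some transcript, which makes up 37.6% of eligible sequence, so the density was 27.1 per Mb in first introns and 11.6 per Mb in other introns. In the replicates 59.5% ± 1.44 of far-intronic top regions were in first introns (SD, n = 3). First introns are also nearer to the TSS, and the part of distance in this difference was not tested. The host introns were long, with a median of 14610.5 bp. The nearest TSS belonged to a gene that holds the summit for 484 members and to another gene for 236. By arm the density was 22.6 per Mb on X, 18.7 on 2L, 17.3 on 3L, 15.2 on 3R and 14.7 on 2R, with 1 peak on 4. X was the highest in each replicate, but in replicate 1 it had 18.0 per Mb, against 17.8 on 2L. 2R was above 3R in each replicate, the reverse of their order in the reproducible set. Another member lay within 2 kb of 151 members, and some other peak within 10 kb of 485.

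Summits were richer in A and T than the intron around them. This was so in the top regions of each replicate, which are in part the same DNA. A or T made up 66.4% of the bases within 50 bp of the summit and 58.2% of those in windows centred 500 bp to both sides. The mean difference was 8.21 points (SD 10.5 over 720 members). 572 members were richer at the summit, 137 poorer and 11 equal (exact sign test, p = 5.2e-64). Among members with no soft-masked base in the summit window, that is with no sequence the assembly marks as repeated or simple, the difference was 4.02 points (exact sign test, p = 2.5e-07). That filter removed 516 of the 720 members. It was set on the summit windows and not on the flanks, so summit and flank were not filtered alike. The part of this in the lower value was not tested. Far-intronic top regions of the replicates gave 6.94, 7.49 and 6.73 points, or 7.05 ± 0.389 (SD, n = 3). Far-intronic candidates outside the reproducible set, 7306 regions from the same lists, gave 1.23 points. In 4 groups of 180 members by signal, the difference ran from 7.54 points in the highest to 8.62 in the lowest.

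The A- and T-rich centre sat inside a poorer zone. In 25 bp steps, A or T content was 67.6% at the summit and was 54.8% at 275 bp on either side, below the 59.5% and 60.1% at 1000 bp to the left and right. Candidates outside the set had 60.6% at the summit and 57.8% and 57.5% at 275 bp. Promoter peaks had a broader rise over a lower base line, 64.0% at the summit and 56.5% at 275 bp. Against the other classes the summit-minus-flank difference of far-intronic peaks was not distinguishable in the main fit. It was lower by 0.22 points than at near-intronic peaks (95% interval -1.42 to 0.97, n = 3670, adjusted p = 0.713), lower by 0.45 than at promoter peaks (-1.46 to 0.56, adjusted p = 0.575) and higher by 1.01 than at far-intergenic peaks (-0.49 to 2.52, adjusted p = 0.563). The comparison with promoter peaks depended on the setting. Members were lower by 2.23 points with windows of 100 bp to each side (linear regression, n = 3670, adjusted p = 1.2e-07), and higher by 2.25 points in peaks with no soft-masked base (adjusted p = 0.028). The latter filter again covered the summit windows only, and fewer peaks entered that fit. The assembly writes repeated and simple sequence in lower case (soft-masked), and 71.7% of member windows held such a base. Soft-masked bases made up 19.9% of the summit windows and 18.6% of the flanks.

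**Figure D2:**
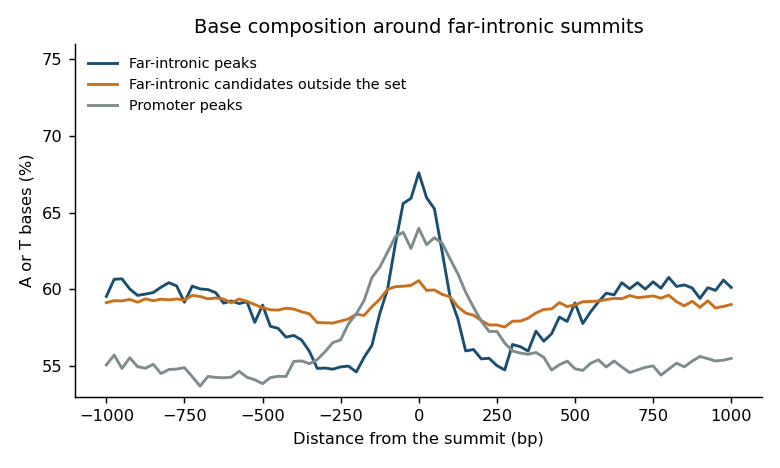
Share of A or T bases in % (y) by distance from the summit in bp (x) for 720 far-intronic peaks, 7306 far-intronic candidates outside the reproducible set, and 1799 promoter peaks. The far-intronic peaks reach 67.6% at the summit, with lows of 54.6% at 200 bp to the left and 54.8% at 275 bp to the right. The candidates' lowest value is 57.5%, at 275 bp to the right.

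No short motif of a known factor passed the main test, within 50 bp of the summits of far-intronic peaks. In the exact McNemar test of the summit window against 1 flank window, none of 22 motifs passed the adjusted threshold (0%), and 4 had an unadjusted p under 0.05. Of those, CAGCTG (an E-box, 2.22% of summits against 5.14% of flanks) and CACACACA (1.81% against 4.31%) were rarer at summits, each with an adjusted p of 0.071. TGANTCA (the AP-1 site, 3.33% against 1.39%) and TGTTTAC (forkhead, 4.31% against 2.08%) were more frequent, each with an adjusted p of 0.124. These 4 were chosen after their values were seen. With windows of 25 bp to each side TGTTTAC passed, at 2.92% of summits and 0.556% of flanks (exact McNemar test, adjusted p = 0.011).

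Motifs typical of promoters were less frequent at far-intronic than at promoter summits. Among 65 comparisons of a motif between far-intronic peaks and another class that could be fitted, 4 passed (6.15%), each against promoter peaks. CGATA, the core of the insulator protein BEAF-32, was within 50 bp of 10.6% of far-intronic and 22.5% of promoter summits (logistic regression, n = 3670, adjusted p = 2.3e-10). TATCGATA, the DNA replication-related element, which contains CGATA, was found at 0.139% of far-intronic and 3.56% of promoter summits (n = 3670, adjusted p = 0.024). For CAGCTG the shares were 2.22% and 5.73% (n = 3670, adjusted p = 0.0088), and for CCGGAA, the ETS site, 0.972% and 3.22% (adjusted p = 0.042). The call for CGATA was lost with the upper 50% of peaks by signal, where the difference was -6.58 points. The calls for the other 3 were lost when any 1 replicate was left out. Here and below, that means keeping only peaks of the set that overlapped top regions of both other replicates. Fewer peaks then entered the fit, and the set, its summits and its signals still came from all replicates.

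The search for frequent words of 8 bases used the members of X and of both arms of chromosome 2, and the test used the 312 members of both arms of chromosome 3 and of chromosome 4. Within 50 bp of the summit 3 of 10 words passed (30%), all of A and T only. AATATTAA was in 17 summit windows and 1 flank window (exact McNemar test, adjusted p = 0.0014), AAAATATT in 24 and 7 (adjusted p = 0.017) and ATATTAAA in 18 and 5 (adjusted p = 0.035). Of all 136 words made of A and T only, 103 were in more summit than flank windows on these arms, 1479 against 931 windows in sum, so the called words belong to a general excess of such words. No word passed in 8 of the 15 settings tried, among them those without replicate 1 or without replicate 2. AATATT, the 6 bases that AATATTAA and AAAATATT share, was chosen after the words were seen. It was in 20.1% of member summit windows and 7.64% of flanks, and in 19.1% ± 0.655 and 8.85% ± 0.178 of the replicates' far-intronic top regions (SD, n = 3). Summit and flank windows held it in 18.8% and 7.69% at near-intronic, 13.5% and 6.95% at promoter, and 17.0% and 8.52% at far-intergenic peaks. The shares were 9.28% and 7.73% at near-intergenic peaks, and 7.06% and 8.24% at exonic peaks, where the summit was the lower. Far-intronic candidates outside the set had it in 11.4% and 8.69%.

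The word CACTGAGA appeared when the search window was widened to 100 bp on each side. This repeat of the word search was added after the data were seen, as 1 of the 15 settings. In it 5 of 10 words passed on the arms not searched (50%), and CACTGAGA had the lowest p. It was in 22 of 312 member windows (7.05%) and in 1 flank window (0.321%), with an adjusted p of 5.7e-05 in the exact McNemar test. The other 4 were GAGAGAAA, in 19 summit and 6 flank windows (exact McNemar test, adjusted p = 0.029), and 3 words of A and T only. GAGAGAAA overlaps the end of CACTGAGA where that is followed by GAAA.

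Over all arms, 59 of 720 members (8.19%) had CACTGAGA within 100 bp of the summit, and 3 (0.417%) had it in the flank window. In the replicates' far-intronic top regions it was in 7.65%, 7.08% and 7.47% of summit windows, or 7.40% ± 0.291, and in 0.540% ± 0.243 of flank windows (SD, n = 3). The lowest replicate at the summit was thus far above the highest in the flank. In 4 groups of 180 members from high to low signal it was in 17, 16, 9 and 17, with no order. By arm it ran from 7 of 140 on 3L to 11 of 105 on 2R. Members with the word had a median signal of 150.3, and those without it 141.9.

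The word was shared with other sites away from promoters. On the arms not searched it was at 7.05% of far-intronic and 2.42% of 827 promoter summits, an odds ratio of 3.06 (95% interval 1.58 to 5.92, logistic regression with clustered errors, n = 312 and 827, adjusted p = 0.0027). CACTGAGA was picked for its low p among members of these same arms, so they are no independent set for comparing classes. The members' share there may be too high for that reason. Against near-intronic peaks (6.61% of 227) the odds ratio was 1.07 (0.534 to 2.15, n = 312 and 227, adjusted p = 0.845), and against far-intergenic peaks (8.94% of 179) it was 0.773 (0.416 to 1.44, adjusted p = 0.622). These intervals leave room for sizeable differences either way. Over all arms, which include those searched among members, the shares were 8.19% at far-intronic, 5.38% at near-intronic and 10.2% at far-intergenic peaks. In near-intronic top regions of replicates 1, 2 and 3 they were 3.90%, 5.61% and 4.32%, each below the far-intronic share of that replicate. In far-intergenic ones they were 11.4%, 9.14% and 8.76%, each above it. These differences carry no test. Among the 7306 far-intronic candidates outside the set, 2.31% of summit windows and 0.506% of flank windows held the word. The call against promoter peaks was lost with the upper 50% of peaks by signal, where the difference was 5.25 points and fewer peaks entered the fit. It was also lost with no soft-masked base within 50 bp of the summit, where the difference was 1.68 points and again fewer peaks entered the fit. With the word counted within 50 bp alone the call was lost as well, at 1.52 points.

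**Figure D3:**
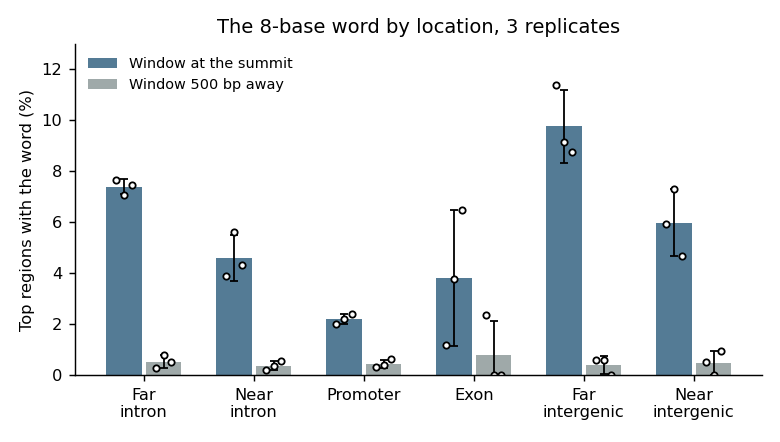
Share in % of each class's top regions with CACTGAGA within 100 bp (y), at the summit and in a window 500 bp away, by location class (x). Bars are means of 3 replicates, error bars SD and points the replicates. At the summit far-intronic regions average 7.40%, near-intronic 4.61%, promoter 2.22% and far-intergenic regions 9.76%, the highest.

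Copies of the word stood beside the summit rather than on it, and nearly all faced it. Within 150 bp of member summits there were 84 copies in 81 members, at a median of 75.5 bp from the summit (quartiles 48.2 and 98.5 bp). Only 7 were within 20 bp. In 40 bp bins there were 2.78 copies per 100 members around 80 bp to the left, 2.36 around 80 bp to the right and 0.972 at the summit. The summit lay on the 3′ side of the word, past its GAGA end, for 78 of the 84 copies (92.9%) and on the 5′ side for 6. On the arms searched the counts were 51 and 4, and on the arms not searched 27 and 2. The far-intronic top regions of the replicates gave 92.8%, 91.0% and 94.0% on the 3′ side, or 92.6% ± 1.52 (SD, n = 3). The share was 94.6% of 37 copies at near-intronic peaks, 84.9% of 53 at promoter peaks and 95.8% of 48 at far-intergenic peaks, so the orientation was not peculiar to introns. It was 77.0% of 252 copies at the candidates outside the set. This orientation was noticed in these peaks and carries no test. A pair of copies facing each other across the summit occurred in 2 members.

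**Figure D4:**
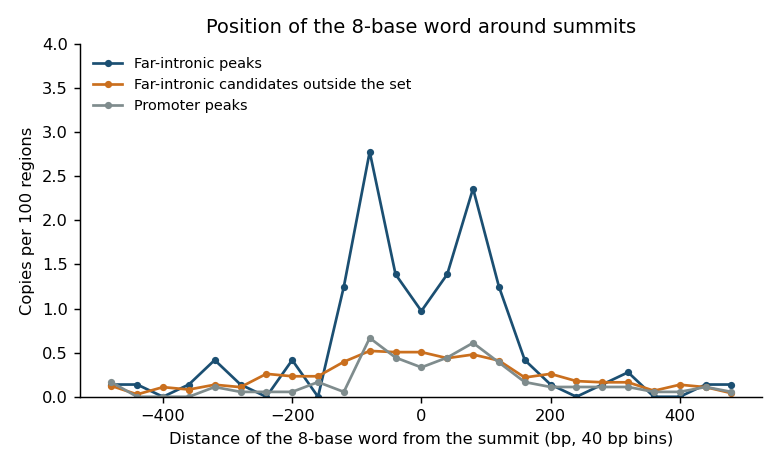
Copies of CACTGAGA per 100 regions (y) by distance from the summit in 40 bp bins (x) for far-intronic peaks, far-intronic candidates outside the set, and promoter peaks. Far-intronic peaks show maxima of 2.78 and 2.36 about 80 bp to the left and right, and 0.972 at the summit.

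The bases next to the word were uneven among these 84 copies, which were not tested against copies elsewhere. Counting from 1 at the first base of the word, positions 10, 11 and 12 were A in 84.5%, 90.5% and 88.1% of copies, and position 9 was G in 52.4% and A in 42.9%. The base just before the word was G in 53.6% and A in 44.0%, and the base before that T in 63.1%. The longer form with A required at positions 10, 11 and 12, written from these frequencies, was within 100 bp of 46 members (6.39%) and in 1 flank window (0.139%). It was at 3.46% of near-intronic, 1.39% of promoter and 9.09% of far-intergenic summits. Of the 1425 copies of CACTGAGA in eligible sequence, 537 had this longer form, so it was common away from peaks too. Of the 537, 49 (9.12%) were within 100 bp of a member and 169 (31.5%) within 100 bp of any pooled candidate. Of the 1425 copies of CACTGAGA, 63 (4.42%) had their middle within 100 bp of a member and 17.5% within 100 bp of a candidate, while such windows cover 0.347% and 3.96% of eligible sequence. Most copies of the word were thus at no peak.

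The word lay in soft-masked sequence more often at members than elsewhere. Of the 61 copies that lay whole inside a member's window of 100 bp to each side, 41 (67.2%) held a soft-masked base, against 38.9% of the 1425 copies in eligible sequence. Among members with no soft-masked base within 50 bp of the summit, the excess over the flank on the arms not searched was 3.45 points (exact McNemar test, p = 0.25). That filter covered neither the rest of the 100 bp window nor the flank. Over all arms it removed 516 of the 720 members. Few members thus entered the test, and its p is no sign that the excess was absent. Of the 59 member windows with the word, 2 shared a run of 20 bases with another of them, and 9 of all 720 did. The part of repeats in these results was not tested beyond these values.

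Far-intronic peaks were spread over many genes. Of the 4333 genes with eligible sequence, 444 (10.2%) held 1 or more members, and 702 members lay in a protein-coding gene. A single member was found in 270 hosts, and 4 or more in 35, which together held 167 members (23.2%). Longer genes were hit more often: 0.622% of genes with under 2.5 kb of eligible sequence were hosts, 13.5% with 2.5 to 10 kb, 26.7% with 10 to 40 kb and 42.3% with more. Per Mb of eligible sequence, the longest genes held the fewest members of the last 3 groups, 12.3 per Mb over 40 kb, against 20.9 at 10 to 40 kb and 30.4 at 2.5 to 10 kb.

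The host with the most members, kirre, which encodes an immunoglobulin-family adhesion protein of myoblast fusion, held 12 members in 287.5 kb of eligible sequence (41.7 per Mb), of which 5 were top regions of all 3 replicates. tara, which encodes a coregulator of transcription and the cell cycle, held 8 members in 25.1 kb (318 per Mb), 7 of them top regions of all 3 replicates, and sbb 7 in 46.8 kb. Raf, fz, Eip75B (an ecdysone-induced nuclear receptor), ush (a zinc finger cofactor of GATA factors), hth (a homeodomain cofactor of Hox proteins) and lncRNA:CR44357 held 6 each. Per Mb these ran from 36.9 (lncRNA:CR44357) to 244.9 (Raf). All 6 members of Eip75B were top regions of all 3 replicates.

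Hosts of 5 members were the Hox gene Antp, the transcription factor gene apt, the axon guidance gene NetA, cv-c and RapGAP1, which encode GTPase-activating proteins, CG8312, CG43658 and lncRNA:CR32773. The 18 hosts of 4 members included the guidance gene Sema1a, the integrin gene mew, the adhesion genes ed and Ten-a, the junction gene pyd, the kinase genes msn and Drak, the growth factor gene Pvf3, simj, which encodes a NuRD subunit, rdx, which encodes a ubiquitin ligase adaptor of Hedgehog signalling, Hr4, jing, px, Tet and RhoGAP19D. CG1677 lies inside lncRNA:CR44357, and CG46458 inside Antp, so their 4 members each are counted under both.

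**Figure D5:**
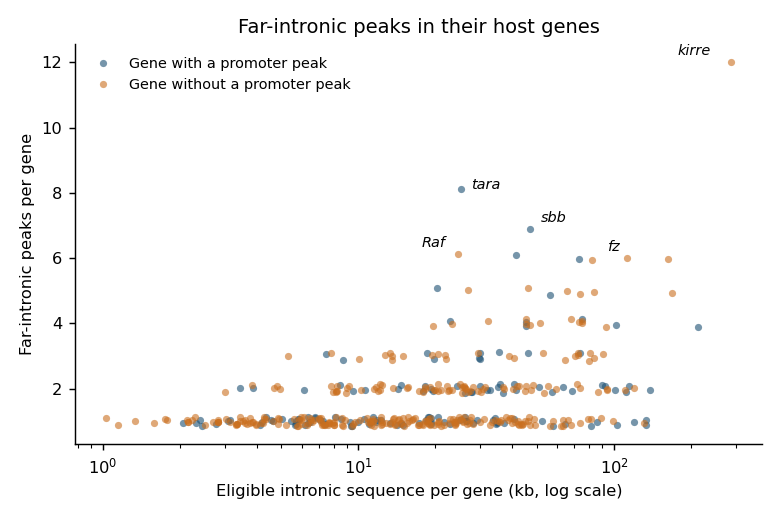
Far-intronic peaks per host gene (y, points spread slightly in height so that they do not hide each other) against the gene's eligible intronic sequence in kb (x, log scale), coloured by whether the gene also has a promoter peak. kirre stands highest with 12, and tara and Raf reach 8 and 6 in about 25 kb each.

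Hosts had a promoter peak of their own more often than other genes with eligible sequence. A peak within 500 bp of a TSS was found for 134 of 444 hosts (30.2%) and for 715 of 3889 genes without a member (18.4%). Hosts are longer and have more TSSs, a median of 2 against 1. Among protein-coding genes with 1 TSS and 2500 bp or more of eligible sequence, 34 of 150 hosts (22.7%) and 67 of 739 other genes (9.07%) had one. These are counts of genes, with no test.

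Gene groups differed in how many of their members were hosts. The lists were chosen with earlier results of these data known, and they carry no test. Since longer genes are hosts more often, the 10.2% of all genes with eligible sequence is no measure for a list of long genes. Each list is therefore set beside its size-weighted rates, which are the host share and the density of all genes in the 4 size groups above, weighted by how the list's genes fall into them. Among nuclear receptors and ecdysone genes 8 of 19 with eligible sequence were hosts (42.1%, against a size-weighted 26.8%), with 43.2 members per Mb against 15.7. They were led by Hr4, Hr3 (3 members) and Eip75B. Of patterning transcription factors 20 of 62 were hosts (32.3% against 21.8%), at 31.4 per Mb against 17.6, among them shn (signal up to 332), a zinc finger factor of Dpp signalling, pnt with 3 members and grh, an epidermal factor. Of the 8 Hox genes Antp and lab were hosts (25% against 28.9%).

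Lists of signalling and chromatin genes had the highest densities of the 12 lists. Of Notch and EGF receptor genes 8 of 22 were hosts (36.4%, against a size-weighted 18.0%), with 56.6 members per Mb against 19.7, among them Raf, aos and N, the Notch receptor (signal 309). Of Wnt, Hedgehog and Dpp genes 10 of 28 were hosts (35.7% against 16.1%), at 55.4 per Mb against 18.3, among them fz, sog, a secreted antagonist of Dpp with 3 members, and dpp itself (signal 318). Chromatin regulators had 8 hosts of 33 (24.2% against 8.62%) and 58.8 members per Mb against 17.4, with trx, the remodeller gene Mi-2 (2 members, signal up to 364) and the Polycomb group gene Psc (301).

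Lists of guidance, RNA-binding, cytoskeleton, channel and insulator genes were nearer to their size-weighted densities or below them. Of axon guidance and adhesion genes 16 of 49 were hosts (32.7%, against a size-weighted 29.9%), at 15.9 members per Mb against 14.2, with kirre, Sema1a and Fas3 the strongest. Of RNA-binding regulators 12 of 23 were hosts (52.2% against 30.8%), at 13.3 per Mb against 13.2, with shep, Rbfox1 and cpo the strongest. Cytoskeleton genes had 7 hosts of 35 (20% against 16.7%), at 24.3 per Mb against 19.0, with the kinesin gene Klp98A, the actin nucleator gene spir and the guanine nucleotide exchange factor gene trio. Ion channel and synapse genes had 4 hosts of 35 (11.4% against 26.7%) and 4.15 members per Mb against 15.9, with Ih, scrib and Ca-alpha1T the strongest. None of 10 insulator protein genes was a host, against a size-weighted 5.83%, in 0.053 Mb of eligible sequence, and no cytoplasmic ribosomal protein gene had any eligible sequence.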

How the data were processed

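The deposited files were dm6 lists of regions from 3 biological replicates. Per the text files deposited beside them, the authors took candidate regions from each replicate and from all 3 together, each with a control, and kept those of like rank across replicates by the irreproducible discovery rate. Names and settings of the aligner and the caller were not given in the sources used here. Each region's signal is a score that the authors deposited, used here only to rank or compare regions within a list. The authors also deposited −log10 q values, which were not used for results. Depth is unknown, and so is the precision that it gives. Lists on dm3 were not used here.

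Summits were set on gene models of Ensembl release 115 and on the Release 6 sequence. Classes, windows and tests are given with the results. Regressions covered all 3670 peaks, or for CACTGAGA those of the arms not searched, with errors clustered by 200 kb. All tests were two-sided, and p-values called adjusted were Benjamini-Hochberg adjusted, with a threshold of 0.05. Those of the sign tests, and of CACTGAGA against the flank in the alternatives, were not adjusted. The exact tests took members as independent, although 151 members lay within 2 kb of another. Named sites were the 12 of highest signal that were top regions of all 3 replicates. Named host genes had 4 or more members or were up to 3 strongest per gene list. Alternatives changed the distance limit, gene models, peaks used, windows, flank, repeats and clustering. The members, gene lists, motifs and tests were chosen with earlier results of these data known. Scripts were tested on simulated data. Python 3.11.15, pandas 2.3.3, scipy 1.17.1 and statsmodels 0.14.6 were used.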

Additional observations from a re-analysis of the deposited data

How the results depend on the processing

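Of 304 alternative values, 211 kept their direction and their side of the threshold, or lay within 1.5 times of a count. Some of the 211 could not change. Clustering does not enter the McNemar test of CACTGAGA, and the flank does not enter comparisons of summit motifs between classes. Keeping 1 entry where an interval was listed more than once left the same 720 members. The 211 are therefore no measure of how robust the results are. The A and T excess at member summits did so in all 14 of its alternatives, of which the one with 1 entry per repeated interval could not differ. It ran from 4.02 points with no soft-masked base in the summit window, a filter not set on the flanks, to 8.68. The highest value was that with the strongest member per host gene. With 4000 bp as the limit there were 460 members, with the upper 50% of peaks by signal 345 in 261 host genes, and with top regions of all 3 replicates 465. Leaving out 1 replicate, which kept the peaks that overlapped top regions of both others, gave 503 to 545 members and 343 to 362 hosts. The set itself still came from all 3 replicates, so these values do not show what a set made without 1 replicate would hold.

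Replicate support against far-intergenic peaks was 6.42 points at 1000 bp, 2.61 at 4000 bp, 6.39 with protein-coding genes only, -0.68 with the upper 50% and 1.78 with more top regions (7340 per replicate). Against near-intronic peaks it was -7.42 and passed with protein-coding genes only. The log2 signal difference with the strongest member per host gene was 0.032 to near-intronic, -0.011 to promoter and 0.21 to far-intergenic peaks, the last of which passed. To far-intergenic peaks it was -0.068 with the upper 50% and -0.024 with top regions of all 3 replicates, and ran between -0.051 and 0.027 with 1 replicate left out, lowest without replicate 1.

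The A and T difference to promoter peaks passed at -2.62 points with the upper 50%, -1.94 with top regions of all 3 replicates, -2.23 with the 100 bp window, -1.62 with the flank at 1000 bp, and between -1.68 and -1.58 with any 1 replicate left out. It was 2.25 with no soft-masked base and 0.024 with the strongest member per host gene. The difference to near-intronic peaks became 0.25 with the strongest member per host gene, and that to far-intergenic peaks -0.24 with the flank at 1000 bp.

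Motifs called at member summits numbered 4 at 1000 bp, 2 with the upper 50%, 1 with the 25 bp window, 3 with the 100 bp window, 2 with no soft-masked base and 1 to 2 with 1 replicate left out. The motif called with the 25 bp window was TGTTTAC, more frequent at summits. All other motifs called in these alternatives were rarer there. The 2 with no soft-masked base were AAAAAAAA (0% of summits, 9.8% of flanks) and GAGAGAG (0% and 4.41%). That filter was set on the summit windows and not on the flanks, so these calls are no result about the members. CACACACA was the one called without each replicate, rarer at summits. Motif comparisons with other classes called numbered 0 with the upper 50% and 1 at 4000 bp, with top regions of all 3 replicates, with the 25 bp window, with no soft-masked base, with the strongest member per host gene and with any 1 replicate left out.

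Words called numbered 0 at 4000 bp, with the upper 50%, the 25 bp window, the flank at 1000 bp, no soft-masked base and the strongest member per host gene, 5 with protein-coding genes only and with the 100 bp window, and 0 to 1 with 1 replicate left out. CACTGAGA against the flank gave 1.92 points within 50 bp (exact McNemar test, p = 0.070) and 8.01 within 150 bp. Its difference to promoter peaks did not pass with the upper 50% (5.25 points), with no soft-masked base within 50 bp of the summit (1.68) and with the word counted within 50 bp (1.52). Its difference to near-intronic peaks was -0.12 points at 1000 bp, -0.0029 at 4000 bp, -0.55 with protein-coding genes only, -3.69 with no soft-masked base and -0.40 within 50 bp. Its difference to far-intergenic peaks was 1.82 with the upper 50%, 0.078 with top regions of all 3 replicates and between -2.42 and 0.26 with 1 replicate left out, above 0 without replicate 1. The cause of these shifts was not tested. No paired analysis was possible because there is 1 group.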
